A study of Mus musculus with 2 samples.

Results

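The 10 genes described here encode peptides and proteins that kill or restrain microbes at body surfaces, or that protect tissue from proteases there. They are the β-defensins Defb1, Defb6 and Defb14, the whey acidic protein (WAP) domain proteins Slpi, Wfdc5 and Wfdc12, and the antimicrobial proteins Lcn2, Camp, Pglyrp1 and Rnase4. They were chosen by name and are 10 of the 18206 genes that could be named on the array. Every non-control probe with a RefSeq accession of these genes was used, which gave 13 probes, with 2 probes each for Defb1, Wfdc5 and Rnase4. RNA of peeled mouse epidermis in the steady state was hybridised to 2 one-colour Agilent arrays, 1 for each genotype. Both genotypes carry floxed Nfkbiz alleles (Nfkbiz flox/flox), and the knockout also carries K5-cre, a Cre recombinase driven by the promoter of keratin 5, a keratin of basal keratinocytes. The knockout is thereby labelled as deficient in epidermal IκBζ, the nuclear IκB protein that Nfkbiz encodes. The age, strain and number of mice behind each array are not given in the sources used here. A single array stands for each genotype, which leaves neither a replicate check nor a test, and a gene is called higher or lower by size alone, at 2-fold.

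β-defensins are small cationic peptides, folded by disulfide bonds, that epithelia secrete and that disrupt microbial membranes; some also attract immune cells through the chemokine receptor CCR6. WAP domain proteins share a compact disulfide-bonded fold, and several of them inhibit serine proteases and act against bacteria. IκBζ binds NF-κB subunits in the nucleus and is needed for the induction of a subset of NF-κB target genes, among them several antimicrobial genes that keratinocytes switch on in response to IL-17A, IL-36 and microbial products.

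Nfkbiz itself had a signal of 3100 on the control array against 1760 on the knockout array. After scaling each array by its 75th percentile of signal (205 and 239), the log2 difference, knockout minus control, was -1.04 ± 0.20, or 2.05-fold lower, and it was -0.72 with median scaling. Here and below, an error after ± comes from the scanner software's error model for these spots, covers technical error only, and says nothing of the spread between mice. The gene was read by 1 named probe, whose place relative to the deleted part the sources used here do not give, and a probe outside that part would check nothing. The tissue label was met by its markers: the basal keratins Krt5 and Krt14 and the suprabasal keratin Krt10 were bright on both arrays, with Krt5 at 52200 and 54400, and none of 8 basal and 10 suprabasal markers was 2-fold apart. The basal marker Itga6 came closest to the call, with signals of 2770 and 1640 (-0.98 ± 0.20). Both arrays came from 1 slide and 1 scan day, no spot was saturated, and the number of arrays limits the precision.

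Among the 10 antimicrobial genes, Slpi and Defb14 were more than 5-fold lower on the knockout array, Wfdc12 was read on the knockout array alone, and Defb1, Defb6, Wfdc5 and Rnase4 lay within 2-fold. Lcn2, Camp and Pglyrp1 were not well above background on either array. Of the 6 genes with signals on both arrays, 2 were 2-fold or more lower, beside 4.41% of all 12395 genes measured on both, and 0 were 2-fold or more higher, beside 3.03% of those genes. With bounds counted for genes read on 1 array alone, 2 of 7 were lower, beside 5.45% of 13262 genes, and 1 of 7 was higher, beside 3.55%. The median log2 difference of the 6 genes was -0.52, and that of all 12395 genes was -0.04. In RNA of whole epidermis, fewer cells of a type and less RNA per cell cannot be told apart.

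**Figure D1:**
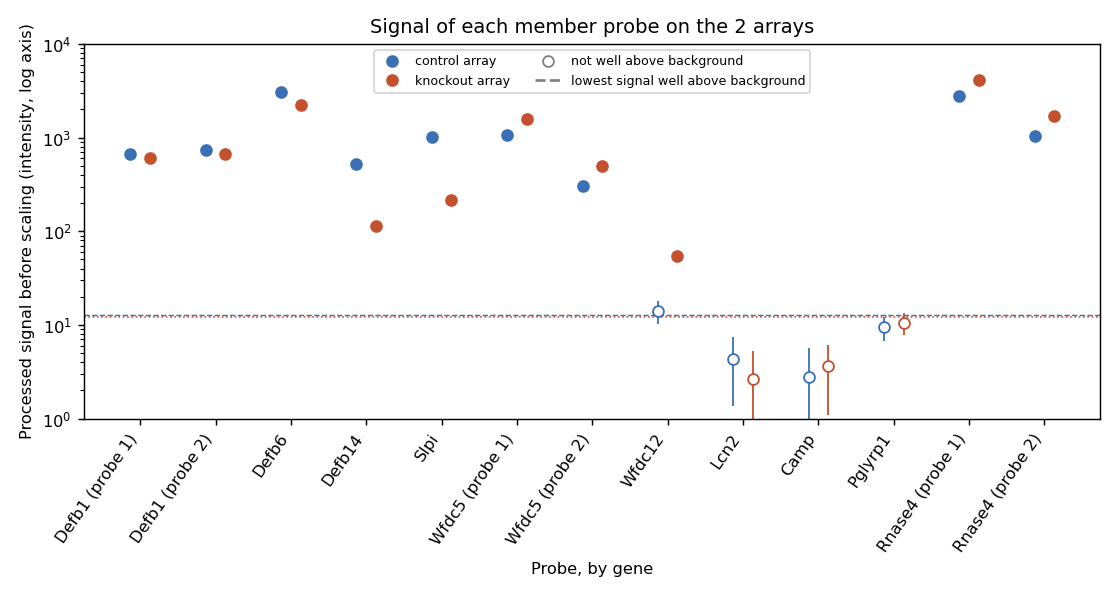
Processed signal (intensity, log axis, before scaling) of each of the 13 probes, with the control array in blue and the knockout array in orange; bars are the scanner's error-model error, open circles are signals not well above background, and the dashed and dotted lines mark the lowest signal well above background on the control and knockout arrays. Defb14 and Slpi stand lower on the knockout array, Wfdc12 stands above background there alone, and the Lcn2, Camp and Pglyrp1 probes lie below the lines on both.

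The β-defensins differed among themselves. Defb14, the mouse counterpart of human β-defensin-3 and a peptide that keratinocytes make in response to inflammatory cytokines, had a signal of 525 ± 52.5 on the control array against 113 ± 11.6 on the knockout array. Its log2 difference was -2.44 ± 0.21, or 5.42-fold lower, and 38 of the 12395 genes read on both arrays (0.307%), itself included, were as low or lower. Defb6, a β-defensin described in mouse skeletal muscle and in epithelia, had signals of 3080 ± 308 and 2250 ± 225. Its difference of -0.67 ± 0.20 (1.60-fold lower) was under the 2-fold call, and 10.4% of all measured genes were as low or lower.

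Defb1, a β-defensin that epithelia make without an inflammatory stimulus, was read by 2 probes. The first had signals of 738 ± 73.9 on the control array against 668 ± 66.8 on the knockout array, a log2 difference of -0.37 ± 0.20. The second had 672 ± 67.3 and 605 ± 60.6, also a difference of -0.37, so that the probes lay 0.0078 apart. This is a closer match than for most genes with 2 measured probes, whose median gap was 0.25 over 3183 genes. Some 24.0% of all measured genes were as low as Defb1 or lower, and median scaling put it at -0.05.

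Defb14, Defb6 and Defb1 lie in the β-defensin cluster of chromosome 8, with 1 gene, Defb4, between Defb14 and Defb6, and 44 genes between Defb6 and Defb1. Defb4 was not named on the array. Of 28 β-defensin genes named on the array, these 3 included, 9 had a difference or a bound, and Defb14 was the only one called at 2-fold. The other 8 ran from a bound of -0.69 for Defb41 to 0.65 for Defb35. The Defb41 bound is a minimum size and does not show it to be under 2-fold. Defb11 (22.9 and 19.4), Defb19 (23.6 and 18.1), Defb15 (30.8 and 53.3) and Defb35 (35.9 and 65.8) were dim, with errors from 0.26 to 0.40. Defb3, 3 places from Defb6 in the gene order, had signals of 80.8 and 61.2 and a difference of -0.62 ± 0.22. Of the 25 β-defensin genes beyond the 3 described here, 19 were not well above background on either array.

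The promoter of Defb6 is shown because it holds matches to motifs of NF-κB and of C/EBP, a factor of epithelial and myeloid gene control, close together. It spans the 250 bases before the gene's start in RefSeq (chr8:19225228-19225477, build GRCm38.p6, plus strand), printed from 5′ to 3′ with the matches in capitals.
Defb6: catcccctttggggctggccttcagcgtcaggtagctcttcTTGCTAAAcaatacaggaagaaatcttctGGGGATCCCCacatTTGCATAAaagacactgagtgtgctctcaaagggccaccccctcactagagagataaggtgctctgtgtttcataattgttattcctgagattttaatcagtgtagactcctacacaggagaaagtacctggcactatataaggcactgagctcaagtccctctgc
Counted from the start, the NF-κB consensus matched at position -180, and the C/EBP motif, searched as TTGCNNAA, at -209 and -166. Both motifs were searched on both strands, and the NF-κB match reads the same on either. Of 32851 RefSeq promoter windows of the same length, 7.3% hold the NF-κB consensus and 9.6% the C/EBP motif. A match is a stretch of letters and not a measured binding site.

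The WAP genes differed among themselves as well. Slpi, the secretory leukocyte protease inhibitor, blocks neutrophil elastase and cathepsin G and also acts on bacteria and fungi. Its signal was 1010 ± 101 on the control array against 215 ± 21.6 on the knockout array. The log2 difference was -2.45 ± 0.20, or 5.48-fold lower, and 36 of the 12395 genes (0.290%), itself included, were as low or lower. Slpi and Defb14 thus differed from each other by less than the error of either difference.

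Wfdc12, a WAP domain protein with activity against bacteria, had a signal of 14.2 ± 3.86 on the control array, not well above background, and 55.1 ± 6.36 on the knockout array. Set against its own dim signal on the control array, it was 3.33-fold higher (1.73 ± 0.43 on the log2 scale). That dim signal stood above the lowest one well above background there (12.7), so this bound is the plain difference and not a minimum. Wfdc12 passed the filter on dim probes only through the array where it is brighter, and a gene read on the knockout array alone was given a bound only where it was higher there, so the direction of the bound supports nothing. Normexp background correction adds an offset of 50 to every spot and was followed here by quantile normalization. With it, the Wfdc12 difference was 0.68 and the call was lost.

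Wfdc5, a WAP domain protein of skin, was read by 2 probes. The brighter had signals of 1070 on the control array against 1580 on the knockout array, a log2 difference of 0.34 ± 0.20 (1.27-fold higher). The dimmer had 301 ± 30.3 and 501 ± 50.1, a difference of 0.51 ± 0.20 (1.43-fold higher). Both probes were higher on the knockout array, both were under the 2-fold call, and they lay 0.17 apart. About 20.6% of all measured genes were as high as Wfdc5 or higher.

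Slpi, Wfdc5 and Wfdc12 lie in the WAP gene cluster of chromosome 2, where Wfdc5 and Wfdc12 are next to each other and 8 genes stand between Wfdc12 and Slpi. The promoter windows of Slpi, which was lower on the knockout array, and of Wfdc12, its relative in the cluster, are shown so that the motif matches of both can be read. Slpi is at chr2:164356508-164356757 and Wfdc12 at chr2:164190559-164190808, both RefSeq sequence of build GRCm38.p6 on the minus strand, printed from 5′ to 3′ along the gene with C/EBP matches in capitals.
Slpi: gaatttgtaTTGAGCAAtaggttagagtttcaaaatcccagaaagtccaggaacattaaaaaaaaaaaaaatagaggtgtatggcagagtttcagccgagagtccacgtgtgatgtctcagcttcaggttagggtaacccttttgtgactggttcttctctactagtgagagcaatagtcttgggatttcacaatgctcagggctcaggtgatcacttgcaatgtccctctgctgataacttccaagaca
Wfdc12: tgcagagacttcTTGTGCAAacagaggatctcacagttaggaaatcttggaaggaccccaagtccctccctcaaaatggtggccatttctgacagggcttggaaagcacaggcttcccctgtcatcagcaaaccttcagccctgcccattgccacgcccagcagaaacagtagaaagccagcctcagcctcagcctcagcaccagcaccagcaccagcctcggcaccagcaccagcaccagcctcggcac
Each window holds the C/EBP motif once, at position -241 from the start in Slpi and -238 in Wfdc12, and neither holds the NF-κB consensus. Windows were found for 7 of the 10 genes, all but Defb1, Defb14 and Wfdc5, with 2 windows for Rnase4. Of these 8 windows, 5 held the C/EBP motif, beside 9.6% of all windows, and 2 the NF-κB consensus (Defb6 and Pglyrp1), beside 7.3%. None of the 8 windows held the AP-1 motif TGANTCA, the STAT motif TTCNNNGAA or, on the gene's strand, the TATA motif TATAAA, which stand in 6.7%, 7.0% and 7.6% of all windows.

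Other WAP genes spread as widely. Of 14 WAP domain genes named on the array, Slpi, Wfdc5 and Wfdc12 included, 10 had a difference or a bound. Of these, 3 were at least 2-fold lower, 2 at least 2-fold higher and 5 in between. Of the 2 higher, 1 is Wfdc12, whose direction supports nothing. Wfdc3, in the same cluster with 20 genes between it and Slpi, had signals of 521 and 81.8, a log2 difference of -2.89 ± 0.21 (7.43-fold lower). Wfdc18 and Wfdc21 are next to each other on chromosome 11 and went opposite ways. Wfdc18 had signals of 188 and 55.6 (-1.98 ± 0.23, 3.94-fold lower), and its other probe gave -2.56. Wfdc21 had signals of 3050 and 10100 (1.51 ± 0.20, 2.84-fold higher). The 6 measured on both arrays beyond Slpi, Wfdc5 and Wfdc12 had a median of -0.58, which was -0.26 with median scaling, -0.23 with quantile normalization, -0.25 with cyclic loess and -0.01 with normexp. The count among those other WAP genes, 2 lower and 1 higher, was the same under each of these settings.

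Rnase4, a secreted ribonuclease of the RNase A family that shares its locus with the angiogenin gene Ang, was read by 2 probes. The brighter had signals of 2770 ± 277 on the control array against 4170 ± 417 on the knockout array, a log2 difference of 0.37 ± 0.20 (1.29-fold higher). The dimmer had 1050 ± 105 and 1690 ± 169, a difference of 0.47 ± 0.20 (1.38-fold higher). Both were under the 2-fold call, lay 0.096 apart, and 19.0% of all measured genes were as high or higher. Ang, next to Rnase4 in the gene order, had signals of 108 and 132 and a difference of 0.07 ± 0.21.

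Of 13 RNase A family genes on the array, 9 had a difference or a bound, of which 2 were at least 2-fold higher (1 with normexp) and 0 at least 2-fold lower. Rnase1, the pancreatic-type ribonuclease gene 3 places from Rnase4, had signals of 639 and 1510 (1.02 ± 0.20, 2.03-fold higher), while its other probe gave 0.72, under the call. Rnase2a, which encodes an eosinophil-associated ribonuclease, was not well above background on the control array (5.09) and had a signal of 111 on the knockout array, at least 7.50-fold higher. Like Wfdc12, it was read on the knockout array alone and was given a bound only because it was higher there, so its direction supports nothing. The Rnase2a probe had 2 spots marked as non-uniform nearby on the array, and their part in that value was not tested.

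The remaining 3 genes encode proteins best known from neutrophil granules, and none was well above background on either array. Lcn2, lipocalin 2, which withholds iron from bacteria by binding their siderophores, had signals of 4.37 ± 3.01 on the control array against 2.66 ± 2.65 on the knockout array. Camp, the cathelicidin precursor, had 2.81 ± 2.80 and 3.62 ± 2.54. Pglyrp1, a peptidoglycan recognition protein that is lethal to bacteria, had 9.48 ± 2.80 and 10.6 ± 2.71. All 6 signals lie below the lowest signal that was well above background, 12.7 on the control array against 12.1 on the knockout array, so no difference is given for these genes. Of 12 neutrophil markers on the array, 9, among them Mpo, Elane and Ngp, were not well above background on either array, and 1, Prtn3, was measured on both, with signals of 27.0 and 29.8. Ctsg, the cathepsin G gene, and Fcnb were read on the control array alone, with bounds of -0.79 and -0.39. These bounds are minimum sizes and could only be lower, so they do not show whether either gene was 2-fold apart. Ly6g was not named on the array, and no listed neutrophil marker was called at 2-fold.

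**Figure D2:**
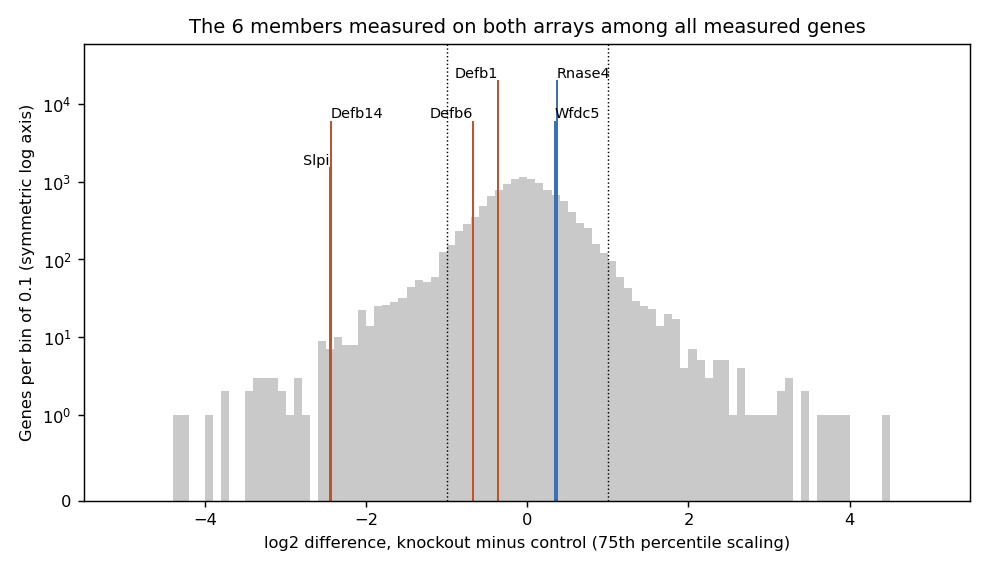
Number of genes in each bin of 0.1 of the log2 difference, knockout minus control (symmetric log axis), over the 12395 genes measured on both arrays, with vertical lines at the 6 antimicrobial genes measured on both (orange below 0, blue above 0; line height carries no value) and dotted lines at 2-fold. Slpi and Defb14 sit in the lower tail at -2.45 and -2.44, while Defb6, Defb1, Wfdc5 and Rnase4 lie between the dotted lines.

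Probes of the 10 genes were free of the array defects that the scanner marks. Each of the 13 probes had 1 spot on each array, none was marked as an outlier, and 0 non-uniform spots lay within 3 rows and columns of any of them. Spots in the surrounding 5 by 5 block, leaving out the probe itself, had median log2 differences from -0.19 to 0.12, so the positions of Slpi (-0.17) and Defb14 (-0.05) were not in a stretch of the array that was lower by 2-fold.

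The scaling of the arrays moved the median of all genes. Median scaling put the median of all measured genes 0.32 higher than scaling by the 75th percentile did, quantile normalization 0.07, cyclic loess 0.05 and normexp 0.06 higher. Relative to the median gene, Slpi was at -2.41 and Defb14 at -2.40, Defb6 at -0.63, Defb1 at -0.33, Wfdc5 at 0.38 and Rnase4 at 0.41 under 75th percentile scaling. Median scaling leaves these relative values as they are, but normexp put Defb14 at -2.02, Wfdc5 at 0.27 and Rnase4 at 0.52 relative to its median gene. Over these scalings, the authors' deposited table and the mean over probes, Slpi ranged from -2.47 to -2.13 and Defb14 from -2.46 to -1.99, and none of the 7 genes with a difference or bound changed direction where a setting gave it a value.

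**Figure D3:**
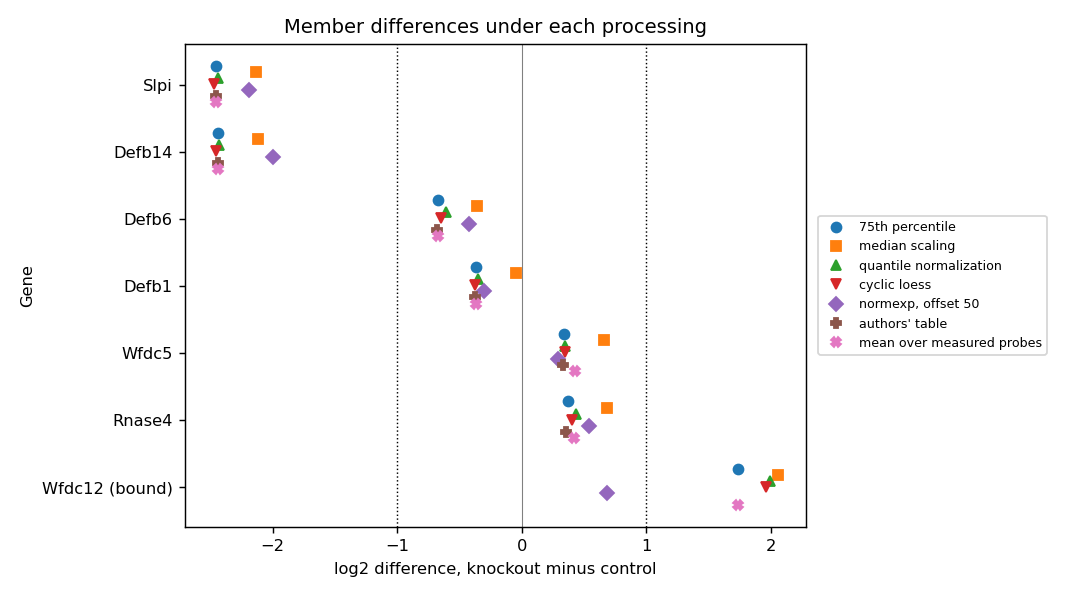
Log2 difference, knockout minus control, of the 7 genes with a difference or a bound under each processing; dotted lines mark 2-fold and the gray line 0. Slpi and Defb14 stay beyond 2-fold under each of them, Defb1 comes closest to 0 with median scaling at -0.05, and Wfdc12 falls to 0.68 with normexp.

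Genes outside these families were read from lists of related function. Among 21 other antimicrobial genes of skin on the array, 10 had a difference, of which 2 were at least 2-fold lower and 2 at least 2-fold higher. Adm, which encodes adrenomedullin, a vasoactive and antimicrobial peptide, had signals of 3800 and 1260 (-1.81 ± 0.20, 3.52-fold lower), and Retnla, a resistin-like protein, had 47.1 and 20.5 (-1.42 ± 0.32). S100a8, a subunit of the metal-binding protein calprotectin, had signals of 65.7 and 178 (1.22 ± 0.22, 2.32-fold higher). S100a9, the other subunit, had 918 and 788 (-0.44 ± 0.20), under the call. The hepcidin gene Hamp2 had 43.8 and 105 (1.04 ± 0.23). The Retnla probe had 1 non-uniform spot nearby, whose part was not tested. The median of the 10 was 0.13, and with normexp the counts were 1 lower and 0 higher.

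A further list on the array held 18 keratinocyte genes known to respond to IL-17A, IL-36 or NF-κB. This list leaves out the 10 genes described above and shares S100a7a, S100a8 and S100a9 with the previous list. In it, 10 genes had a difference or a bound, and the median of the 7 measured on both arrays was -0.52, against -0.04 for all genes. Ccl20, the chemokine that binds CCR6, had signals of 588 and 202 (-1.76 ± 0.21, 3.39-fold lower), and Tnfaip3, the NF-κB feedback inhibitor A20, had 12600 and 5890 (-1.32 ± 0.20, 2.49-fold lower). Il6 was not well above background on the control array (16.0) and had a signal of 67.8 on the knockout array. Set against its dim control signal, it was 3.64-fold higher (1.86 ± 0.14), a plain difference and not a minimum. Read on the knockout array alone, it was given a value only because it was higher there, so its direction supports nothing. S100a8 was the other gene called higher. This split of 2 lower and 2 higher was 1 lower and 3 higher with median scaling, 2 and 3 with quantile normalization and with cyclic loess, and 2 and 0 with normexp.

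Receptors, proteases and cytokines linked to these proteins gave few calls. Of 10 receptors and partners, 5 were measured, from -0.56 for Egfr to 0.91 for Tlr2, and none was 2-fold apart, though 1 was at least 2-fold higher with median scaling. Ccr6, the β-defensin receptor, was not well above background on either array. Of 12 serine proteases and inhibitors on the array, Prss8, a membrane-anchored protease of the epidermal barrier, was the only one called at 2-fold. It had signals of 847 and 446 (-1.15 ± 0.20, 2.21-fold lower). It was not called with median scaling. Elane, a protease that Slpi inhibits, was not well above background on either array. Ctsg, for cathepsin G, was read on the control array alone (17.9 and 10.4). Its bound of at least 1.72-fold lower does not show whether it was 2-fold apart. Among 14 genes for cytokines that induce antimicrobial genes and their receptors, Tnf was the only one called with 75th percentile scaling and with normexp, while 2 were at least 2-fold higher with median scaling, quantile normalization or cyclic loess. Tnf had signals of 52.4 and 227 (1.89 ± 0.07, 3.71-fold higher, from 10 spots of 1 probe, 1 non-uniform spot nearby), and Il17a was not well above background on either array. The medians over the genes measured on both arrays were -0.42 for receptors and partners, -0.06 for proteases and inhibitors and -0.09 for cytokines. With median scaling, under which the median of all genes is 0.28, they were -0.10, 0.26 and 0.23.

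**Figure D4:**
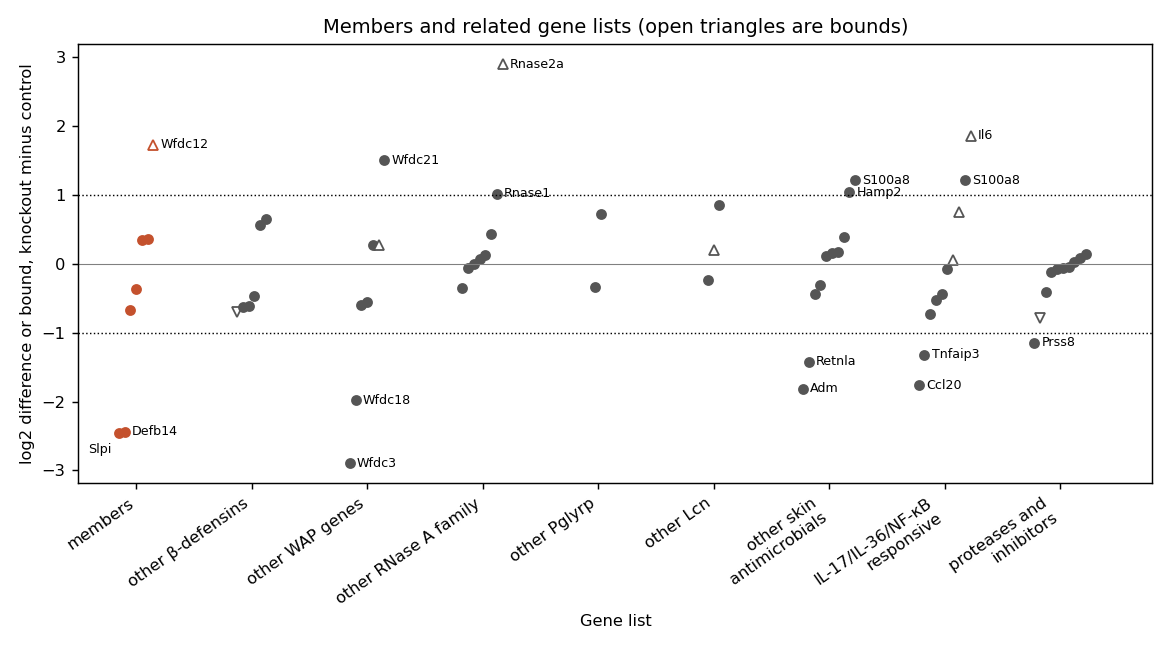
Log2 difference (circles) or bound (open triangles), knockout minus control, of each gene with a value in the 10 antimicrobial genes (orange, labelled members) and in related lists (gray); dotted lines mark 2-fold and genes beyond it are named. The WAP genes measured on both arrays spread from -2.89 to 1.51. Wfdc12 at 1.73 was read on the knockout array alone and could only be higher. Defb14 at -2.44 is the only β-defensin drawn beyond 2-fold.

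Markers of other cell types and skin compartments differed between the arrays too. Of 4 melanocyte markers with a value, 3 were at least 2-fold lower, and the summed signal of the markers measured on both arrays was 1727 on the control array against 466 on the knockout array. Of 7 skeletal muscle markers, 6 were at least 2-fold lower, with summed signals of 1166 and 358. Among them, Ckm and Myh4 were read on the control array alone, and their bounds could only be lower. Upper follicle markers had 2 of 7 at least 2-fold lower, Plet1 (-3.12 ± 0.20) and Aqp3 (-1.44 ± 0.20), and T-cell and Langerhans cell markers had 3 of 8 at least 2-fold higher. Of those 3, Cd247 was called on its brightest probe (1.20 ± 0.22), while another of its probes measured on both arrays gave -0.32 ± 0.31. Monocyte and macrophage markers had 1 of 6 at least 2-fold lower, C1qa (-1.12 ± 0.31), and the median of the 6 was 0.15. C1qa was not called with median scaling, quantile normalization, cyclic loess or normexp. Sebaceous gland and fibroblast markers had 0 at least 2-fold apart. The part of these cell types in the signals of Slpi, Defb14, Defb6 and Wfdc12 was not tested.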

How the data were processed

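The authors deposited, for each array, scanner output with an intensity for every spot on a linear scale. Per the file headers it came from Agilent Feature Extraction 10.7.3.1 on a mouse design annotated on mm9, and the processed intensity had its background subtracted and was detrended within the array. The authors also deposited a table of log2 values, centred for each probe over both arrays (columns sum to 0 within 1e-06, medians 0.14 and -0.14). Across 21603 probes its differences correlated with those of the scanner files at Pearson r 1.00, offset by a median of -0.01, which settles scale, centring and direction; levels cannot be had from it. Per the labels' protocols, epidermis was peeled after ammonium thiocyanate and the amplified RNA labelled with Cy3.

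From the processed intensities, log2 values minus each array's 75th percentile over non-control spots were computed; outlier spots were left out and spots of a probe averaged. A probe was measured if well above background and not saturated (56.2% and 56.3% of probes; median SD of replicate spots 0.11 and 0.08 on the log2 scale over 157 probes). Accessions were named through RefSeq genes of assembly GRCm38.p6 (26662 of 41134 probes), used for names and gene order. Promoter windows also come from RefSeq of that assembly, and no array position was placed on it. For each gene the probe with the highest mean scaled signal was used. A gene dim on 1 array has a bound, its bright value over whichever was greater on the other array, the dim signal or the smallest one well above background. Where the dim signal was the greater, the bound equals the plain difference and is not a minimum. The naming rule covered the 10 antimicrobial genes, Nfkbiz and, in each list, up to 4 genes with the largest difference at 2-fold or more. In the melanocyte, skeletal muscle and T-cell and Langerhans cell lists, not all such genes are named here. Others were named after their values were seen. The genes and lists were chosen with earlier results of these data known.

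Other settings tried were scaling by the median, normexp with an offset of 50, cyclic loess and quantile normalization (limma 3.58.1, R 4.3.3), the authors' table, the mean over probes, other filters and folds of 1.5 and 3. Normexp used median spot signals and was fitted without non-uniform spots, a choice made after seeing the data. Its values were then quantile normalized, so its shifts combine both steps. The gene-level code was tested on simulated data. The rest used pandas 2.3.3, numpy 2.4.6 and, for figures, matplotlib 3.10.9, in Python 3.11.15.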

Additional observations from a re-analysis of the deposited data

How the results depend on the processing

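The count of antimicrobial genes at least 2-fold lower stayed at 2 under every alternative except the 1.5-fold threshold, where it was 3. The count at least 2-fold higher was 1 and became 0 with normexp, with the authors' table, which gives no bounds, and with genes measured on both arrays only. The median of the 6 measured genes was -0.52 and ranged from -0.53 to -0.20. Defb14 was at -1.99 and Wfdc12 at 0.68 with normexp, and none of the 7 genes with a value changed direction. Over all genes, 723 were lower and 471 higher. These counts were 409 and 1088 with median scaling, 569 and 594 with quantile normalization, 592 and 560 with cyclic loess, 243 and 193 with normexp, 2016 and 1408 at 1.5-fold, and 267 and 157 at 3-fold. Without a filter on background, 1422 were lower and 667 higher. Of 29 other genes at least 2-fold apart in the lists, not all of them named here, 29 kept their direction under all 4 scalings. Of these, 26 stayed beyond 2-fold with median scaling, 28 with quantile normalization, 28 with cyclic loess and 18 with normexp. Il6, Rnase2a, Ckm and Myh4, read on 1 array alone, could take only 1 direction. Counts under other filters and folds differ by construction, and the cause of the other shifts was not tested. Signals near background limit what can be said of Wfdc12, Lcn2, Camp and Pglyrp1. No paired analysis was possible because a single array stands for either genotype.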

Other observations

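Genes next to the antimicrobial genes in the RefSeq order were read as well, a comparison chosen after the data were seen. Around Slpi, Rbpjl and the syndecan gene Sdc4, 2 and 3 places away, had log2 differences of 0.14 ± 0.21 and -0.17 ± 0.20, and Sdc4 had signals of 7690 and 7980. Matn4, next to Slpi on that side, was well above background on the knockout array alone (signals of 3.24 and 15.7), so no direction is given for it. On the other side, Svs5, Svs6 and Svs3a were not well above background on either array. Around Wfdc5, the genes Tomm34, Stk4 and Kcns1 lay between -0.13 and 0.02. Lcn2 was not read, but the genes on either side of it were: 1110008P14Rik had signals of 1640 and 1310 (-0.55 ± 0.20), Ptges2, a prostaglandin E synthase, had 531 and 601 (-0.04 ± 0.20), and Slc25a25, a mitochondrial carrier 2 places away, had 3150 and 1750 (-1.07 ± 0.20, 2.10-fold lower). Median scaling, which moves every difference up by 0.32, takes Slc25a25 under the 2-fold call. Beside Camp, Nme6 had signals of 103 and 209 (0.80 ± 0.21) and Cdc25a, a cell cycle phosphatase, had 19.1 and 20.0 (-0.16 ± 0.33).

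Among relatives of Pglyrp1 and Lcn2, Pglyrp2, an amidase that cleaves peptidoglycan, had signals of 22.6 and 43.4 (0.72 ± 0.29), and Pglyrp3, a peptidoglycan recognition protein of epithelia, had 59.9 and 55.6 (-0.33 ± 0.22). Of 7 other lipocalins named Lcn on the array, 4 were not well above background on either array. Lcn10 had 24.9 and 52.3 (0.85 ± 0.31). None of these was 2-fold apart with 75th percentile scaling, but 1 lipocalin was at least 2-fold higher with median scaling, quantile normalization and cyclic loess, and 1 peptidoglycan recognition protein with median scaling.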
